A study of Mus musculus with 6 samples.

Results

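Cytosolic ribosomal protein genes, 55 of the 19057 gene symbols named on the array, encode the protein parts of the 40S and 60S subunits of the ribosome, and 84 of its 45281 probes (0.186%) carried such a symbol. A probe was a member when its platform annotation gave Rpl or Rps with a number and at most a closing a or x, or gave Rplp0, Rplp1, Rplp2 or Rpsa. The members named 55 genes, 33 of the large subunit (52 probes) and 22 of the small subunit (32 probes). Of 76 genes that fit this pattern in a RefSeq gene table of the mouse assembly GRCm38.p6, 21 were named by no probe and were not analysed here, among them Rpl5, Rpl10 and Rpl11.

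RNA of mouse leukemia cells was hybridised to 6 Illumina bead arrays, 3 labelled as Klf4 knock-out and 3 labelled as wild type, called Klf4-deficient and control here. In both groups T cell acute lymphoblastic leukemia (T-ALL) had been induced with NOTCH1 in transplanted mice, the sex was male, and bone marrow was taken 4 weeks after the transplant to sort GFP-positive cells with CD4 and CD8. The sources used here do not give the form of NOTCH1, the way Klf4 was deleted, the strain or the age, and the labels do not say that the samples of a group came from separate animals, so p-values measure the spread between these samples, which may be technical. Fewer cells of a type and less RNA per cell cannot be told apart in such bulk samples.

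For each new ribosome most ribosomal proteins are made in equal numbers, and the mRNAs of the family are among the most abundant of a growing cell. Most of these mRNAs start with a terminal oligopyrimidine (TOP) stretch, a C followed by further C or T bases, through which mTOR complex 1 and the RNA-binding protein Larp1 set their translation. In T cells the family is known from leukemia: RPL5, RPL10, RPL11 and RPL22 are altered in a share of human T-ALL, and in the mouse Rpl22 is needed for development of alpha-beta T cells. Free Rpl5 and Rpl11 bind Mdm2, which links defects of ribosome assembly to p53.

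The start sites of the member genes shared sequence that the choice of members did not use. RefSeq starts (GRCm38.p6) were at hand for 45 of the 55 genes. Within 15 bases on either side of the start, a C followed by at least 5 bases that are each C or T stood at 27 of the 45 genes (60%), against 25.9% of the 17492 protein-coding genes with a start in the same table. The word CCGGAAG, bound by Ets family factors, was present on either strand of the 300-base promoter (250 bases before the start, 50 after) in 44.4% of member genes, against 12.9% of all protein-coding genes. ATGGCGGC, a YY1 word, was present in 6.67% of member genes (3 of 45), against 3.5% of all protein-coding genes. CACGTG, the E-box of Myc family factors, was present in 13.3% (6 of 45), against 8.91% of all protein-coding genes. These are few genes to set against those shares. For the CACCC box that Krüppel-like factors bind, the word CACCC stood in 55.6% of member genes, against 61.7% of all protein-coding genes. GGGCGG, a GC box of Sp and Krüppel-like factors, stood in 64.4%, against 49.2% of all protein-coding genes. A match of letters is not a binding site, and annotated starts can be off by some bases. The Rps25 window opens with a run of T and C bases that has no leading C inside the window, so it did not count. The 8 windows of 30 bases below surround the starts of members described further on. By this rule the first 4 have a TOP-like stretch, in capitals, and the last 4 do not.
Rps6 (chr4:86857353-86857382, minus strand): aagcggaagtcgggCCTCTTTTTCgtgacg
Rplp2 (chr7:141447636-141447665, plus strand): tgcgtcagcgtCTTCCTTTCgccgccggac
Rpl38 (chr11:114668565-114668594, plus strand): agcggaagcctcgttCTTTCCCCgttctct
Rpl13a (chr7:45128731-45128760, minus strand): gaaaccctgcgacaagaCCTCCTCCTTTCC
Rplp0 (chr5:115559452-115559481, plus strand): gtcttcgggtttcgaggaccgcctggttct
Rpl27 (chr11:101442230-101442259, plus strand): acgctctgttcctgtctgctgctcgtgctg
Rps15 (chr10:80292416-80292445, plus strand): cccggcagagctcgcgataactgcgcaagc
Rps25 (chr9:44407699-44407728, plus strand): tttttccgacatcttagcgaggctgctgtg

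The arrays and the sort were checked before the members were read. The mean deposited signal lay between 359.5 and 431.8 on the Klf4-deficient arrays, with array 3 the lowest, and between 417.3 and 445.1 on the control arrays. Between 37.9% and 38.5% of the probes were above a background limit of 21.8 to 23.7, which is 3 times the root mean square of the values below 0. Of 11 measured markers of double-positive T cells, 10 were above the limit on all 6 arrays, with Cd8b1 signal between 25892 and 26627 on Klf4-deficient arrays and between 28518 and 29424 on control arrays. After quantile normalization the Cd8b1 groups overlapped, with a log2 difference of -0.05 ± 0.09 (SE). Klf4 did not check the labels. Its brightest probe had signals of 80.6, 46 and 85.4 on Klf4-deficient arrays and 44, 18.4 and 24.6 on control arrays, higher on the arrays labelled knock-out by 1.03 ± 0.32 on the log2 scale (SE, adjusted p = 0.738 in limma, not called). The 2 further probes of Klf4 did not pass the limit on any array, and which part of the gene was deleted is not stated in the labels, so each direction below is that of arrays as labelled. The Cd8a probe had signals of 18.5, 34 and 12 on Klf4-deficient arrays and 32.7, 29.5 and 30.1 on control arrays, at or near the limit.

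Signals of the members fell into 3 kinds. Above the limit on all 6 arrays stood 69 probes of 49 genes. One probe of Rpsa passed the limit on some arrays only, with signals of 27.3, 17.1 and 15.7 on Klf4-deficient arrays and 36.6, 19.7 and 21.1 on control arrays. The other 14 probes were under the limit on every array, with signals from -15.4 to 18.4. They were the only probe of Rpl6, Rpl14, Rpl17, Rps20 and Rps23, which left these genes and Rpsa without a usable level, and further probes of Rpl4, Rpl23, Rpl27a, Rpl37, Rplp0, Rplp2, Rps24 and Rpsa. Where in the transcript these probes lie was not known here, so no statement on the expression of these genes is made from them.

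Many members lay near the top of the scale. The highest signal of any probe was 41265 to 42099 on the Klf4-deficient arrays and 41515 to 44494 on the control arrays. Of the 195 probes that were among the brightest 0.5% on all 6 arrays, 38 were members (19.5%), from 34 genes, and 1 further member was so bright on 1 array only. Signals of these 38 probes ran from 11111 to 42133, and those of the 30 members above the limit that never came so high from 28.9 to 10958. The sources used here give no scanner flags for saturation, so a change of the brightest members may be compressed. Member probes held 5.40%, 5.14% and 5.21% of the summed signal of Klf4-deficient arrays 1, 2 and 3, and 5.34%, 5.29% and 5.28% of that of control arrays 1, 2 and 3. The groups overlapped in this share.

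No ribosomal protein probe passed the test between Klf4-deficient and control arrays. Each difference is the Klf4-deficient mean minus the control mean of quantile-normalized log2 signal, tested with limma over all 45281 probes, with Benjamini-Hochberg adjustment and a threshold of 0.05. In limma, 0 of 84 members were called higher and 0 lower, against 0.00221% of all probes in each direction, and 0.00659% higher and 0% lower among the 15173 probes above the limit on all arrays. Without adjustment, at p under 0.05, the counts were 0 and 0 as well, against 2.64% and 3.4% of all probes, and against 4.41% and 6.89% of those 15173 probes. The lowest unadjusted p of a member was 0.0666 and the lowest adjusted p was 0.824 in limma. Without Klf4-deficient array 1, 1 probe of Rpl4 was called higher in limma (log2 difference 0.49 ± 0.02 SE, adjusted p = 0.0439), but its signal was below the limit throughout, so no fold is drawn from it. With that array in the fit, the same Rpl4 probe was at 0.33 ± 0.15 (adjusted p = 0.824 in limma).

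The differences of the members centred on 0 and were small. Over the 84 probes the median log2 difference was -0.0013, against a median of 0 over all probes. Over the 69 members above the limit on all arrays it was -0.023, with 28 above 0 and 41 below 0, and over all 15173 probes above the limit it was -0.021. These 69 differences ran from -0.13 to 0.26. The median size of a difference, whatever its sign, was 0.04 for the 69 members and 0.11 for all probes above the limit, and the median SE was 0.08 and 0.11. Those sets differ in brightness. Between signals of 10000 and 25000 the median SE was 0.057 for members and 0.067 for all probes above the limit. At 25000 and over it was 0.069 and 0.064, between 1000 and 10000 0.081 and 0.078, and between 100 and 1000 0.147 and 0.111. Small subunit members had a median difference of -0.01 (27 probes, 11 above 0 and 16 below 0), and large subunit members one of -0.02 (42 probes, 17 above 0 and 25 below 0). For 2 members all Klf4-deficient values lay above all control values and for 2 they lay below them, against 4.29% and 5.26% of all probes. Counted over the 69 members above the limit, these were 1 higher and 2 lower, against 6.78% and 10% of all probes above the limit.

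The 95% intervals from limma show how large a change the arrays could have missed. For 65 of the 69 members above the limit the interval lay inside a 1.5-fold change in either direction (0.585 on the log2 scale), as it did for 71.7% of all probes above the limit. The exceptions were the Rps25 probe, the dimmest probes of Rps24 and Rpl38 among those above the limit, and the dimmer probe of Rps13. The members and all probes above the limit were not matched for signal, and many members were among the brightest probes. Over the 38 brightest members the interval bounds lay between -0.37 and 0.27, and over the 30 others above the limit between -0.64 and 0.81. All these intervals are of quantile-normalized signal, so they do not cover any part of a change that the normalization removed. For the brightest members they also do not cover any part of a change lost near the top of the scale.

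**Figure D1:**
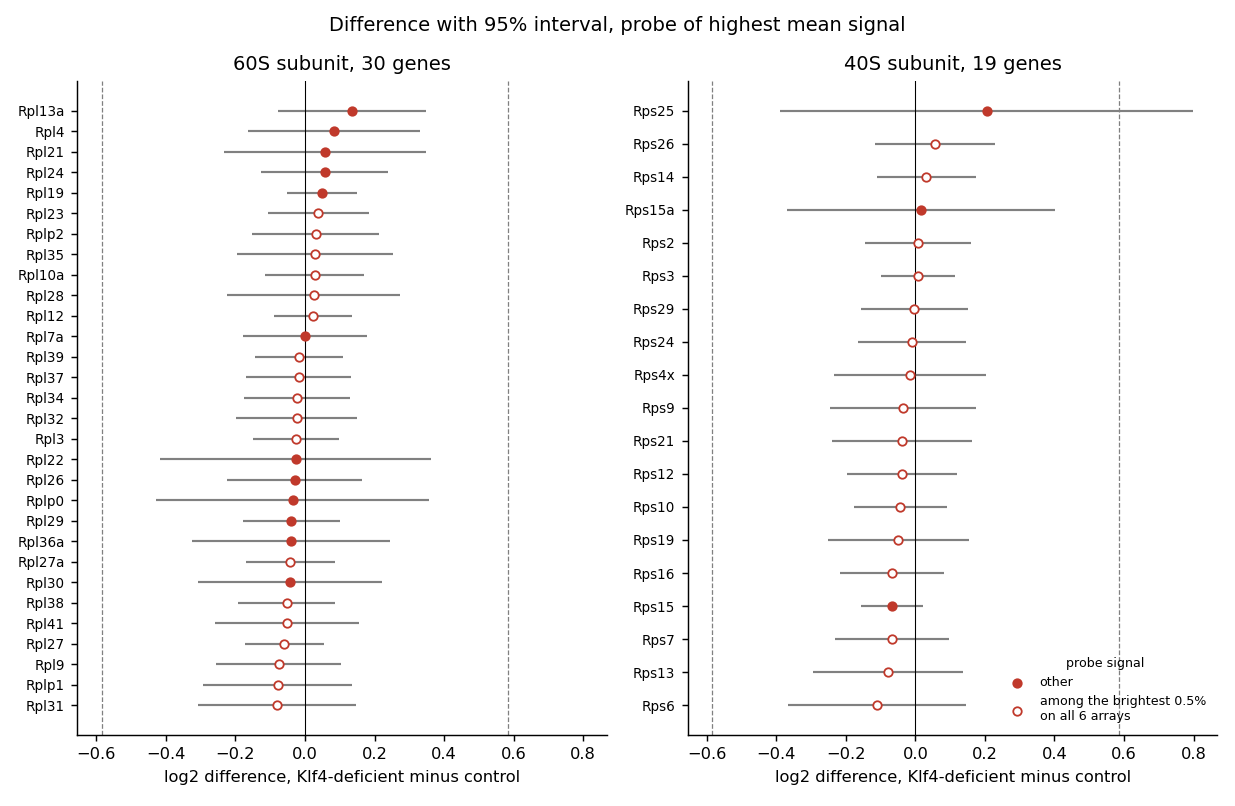
Log2 difference, Klf4-deficient minus control, on quantile-normalized signal (x axis) for the probe of highest mean signal of each of the 49 genes above the background limit on all 6 arrays, with 95% intervals from limma (lines) and dashed lines at a 1.5-fold change. Open circles are probes among the brightest 0.5% on all 6 arrays; every interval crosses 0, and the one of Rps25 reaches past a dashed line.

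Around the stalk of the large subunit, which recruits elongation factors, no difference passed the test. Rplp1 had signals of 40340, 39743 and 34537 on Klf4-deficient arrays 1, 2 and 3 and 41515, 42133 and 39375 on control arrays 1, 2 and 3. The Rplp1 groups overlapped, and the log2 difference was -0.08 ± 0.08 (SE, adjusted p = 0.852 in limma). Rplp2 had 30628, 30296 and 24001 on Klf4-deficient arrays and 30045, 29069 and 29331 on control arrays. Klf4-deficient array 3 was the lowest and the other Klf4-deficient arrays the highest, with a log2 difference of 0.03 ± 0.07 for Rplp2. The brighter probe of Rplp0, the anchor of the stalk on the ribosome, gave 574, 454 and 334 on Klf4-deficient arrays and 485, 479 and 510 on control arrays. Its log2 difference was -0.03 ± 0.15 for Rplp0, and both Rplp2 and Rplp0 had an adjusted p of 1 in limma. Both further probes, of Rplp0 and Rplp2, were under the background limit. Rpl12, which sits at the base of the stalk, differed by 0.02 ± 0.04.

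Rpl22 was the single gene measured here of the 4 that are altered in human T-ALL. Its signals were 1457, 1152 and 950 on Klf4-deficient arrays and 1479, 1051 and 1386 on control arrays. Each group held a high array, and the values overlapped. The log2 difference of Rpl22 was -0.03 ± 0.15 (SE, 95% interval -0.42 to 0.36, adjusted p = 1 in limma). Rpl22l1, the paralog that can take its place in the ribosome, had signals of 31.8, 18.9 and 16.1 on Klf4-deficient arrays and 21.8, 18.1 and 39 on control arrays, above the limit on 1 of 3 arrays in each group, so no fold is given.

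Other large subunit genes with the smallest p in either direction did not pass the test either. Rpl13a, which in human cells also leaves the ribosome to repress inflammatory mRNAs, had signals of 3155, 2723 and 2534 on Klf4-deficient arrays and 2823, 2478 and 2916 on control arrays. Klf4-deficient array 1 was the highest of all 6, and the difference of Rpl13a was 0.14 ± 0.08 (SE, adjusted p = 0.824 in limma). Rpl19 had 7100, 7014 and 5625 on Klf4-deficient arrays and 6999, 6413 and 7184 on control arrays, a difference of 0.05 ± 0.04. The bright Rpl4 probe, of a protein that lines the exit tunnel, had 2325, 2088 and 1591 on Klf4-deficient arrays and 2146, 1779 and 2119 on control arrays, a difference of 0.08 ± 0.09. In these 3 genes the lowest or the second lowest deposited signal was that of Klf4-deficient array 3. Rpl24 differed by 0.06 ± 0.07 and Rpl23, the docking site of the anti-association factor Eif6, by 0.04 ± 0.06.

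On the lower side of the large subunit, Rpl27 and Rpl38 had groups that did not overlap after normalization. Rpl27 had deposited signals of 18091, 18119 and 15117 on Klf4-deficient arrays and 18771, 18041 and 20274 on control arrays, where the groups did overlap. The normalized difference of Rpl27 was -0.06 ± 0.04 (SE, adjusted p = 0.824 in limma). The bright probe of Rpl38, a gene needed in mouse embryos for translation of Hox mRNAs, had 31781, 31391 and 27511 on Klf4-deficient arrays and 34311, 31694 and 33598 on control arrays. Its deposited groups overlapped too, and the normalized difference of Rpl38 was -0.05 ± 0.05 (adjusted p = 0.847 in limma). Rpl9 had 35709, 33920 and 28780 on Klf4-deficient arrays and 37843, 34984 and 36389 on control arrays, a difference of -0.08 ± 0.07. These are brightest-class probes, and each difference was smaller than a 1.1-fold change.

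In the small subunit, Rps6, the substrate of the S6 kinases downstream of mTOR complex 1, had signals of 18616, 17736 and 12604 on Klf4-deficient arrays and 18038, 18082 and 19612 on control arrays. Klf4-deficient array 3 was far below the rest and the other arrays lay together. The log2 difference of Rps6 was -0.11 ± 0.10 (SE, 95% interval -0.37 to 0.14, adjusted p = 0.824 in limma). Rps15, close to the decoding site, had 10260, 9944 and 7902 on Klf4-deficient arrays and 10807, 10116 and 10958 on control arrays. Rps15 differed by -0.07 ± 0.03, the smallest p among small subunit genes by their brightest probe (unadjusted p = 0.110, adjusted p = 0.824 in limma). Rps16 and Rps7 each differed by -0.07 ± 0.06. The interval of Rps15 runs from -0.16 to 0.02.

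No small subunit gene altered in bone marrow failure passed the test. Rps14, the gene behind the anaemia of the 5q syndrome, had signals of 27104, 25670 and 21605 on Klf4-deficient arrays and 27060, 26238 and 25696 on control arrays, a difference of 0.03 ± 0.05 (SE, adjusted p = 0.986 in limma). The bright probe of Rps19, the gene most often altered in Diamond-Blackfan anaemia, had 27403, 26950 and 20976 on Klf4-deficient arrays and 28663, 26286 and 29860 on control arrays, a difference of -0.05 ± 0.08. Rps26 had 25124, 22089 and 18336 on Klf4-deficient arrays and 22160, 22092 and 23856 on control arrays, a difference of 0.06 ± 0.07. Of the 12 listed genes of these anaemias, from both subunits, 8 were measured, among them Rpl26 of the large subunit, with a median difference of -0.02. None passed an unadjusted p under 0.05 in limma (0 of 8), where 4.41% of all probes above the limit were higher and 6.89% lower. With so few genes this count says little.

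Rps25, which some viral and cellular mRNAs need for internal initiation, had the widest interval among the brightest probes of the 49 genes above the limit on all arrays. Its signals were 6563, 4903 and 6676 on Klf4-deficient arrays and 5191, 4978 and 6765 on control arrays. Klf4-deficient arrays 1 and 3 and control array 3 were high and the other arrays low, so the groups overlapped. The difference of Rps25 was 0.21 ± 0.23 (SE, 95% interval -0.39 to 0.80, adjusted p = 0.871 in limma).

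Genes with several probes gave a check within the gene. Of 20 such genes, 15 had at least 2 probes above the limit on all arrays, and in 8 of these the probes differed in sign. The widest gap was in Rps24, whose probes ran from -0.01 (the brightest) to 0.26 (the dimmest above the limit, with signals of 111.3, 64.3 and 72.6 on Klf4-deficient arrays and 74.3, 71.3 and 58.9 on control arrays). Rps13 probes stood at -0.08 and 0.19, Rpl27a probes between -0.10 and 0.15, and Rpl31 probes between -0.08 and 0.10. The second brightest Rpl31 probe had the lowest p of all members, with signals of 1965, 1882 and 1534 on Klf4-deficient arrays and 1898, 1649 and 1804 on control arrays and a normalized difference of 0.10 ± 0.04 (SE, adjusted p = 0.824 in limma). After normalization its groups did not overlap, while the brightest Rpl31 probe differed by -0.08 ± 0.09. Ribosomal protein genes have many near-identical processed pseudogenes, so part of a probe's signal could come from other transcripts, which was not tested.

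**Figure D2:**
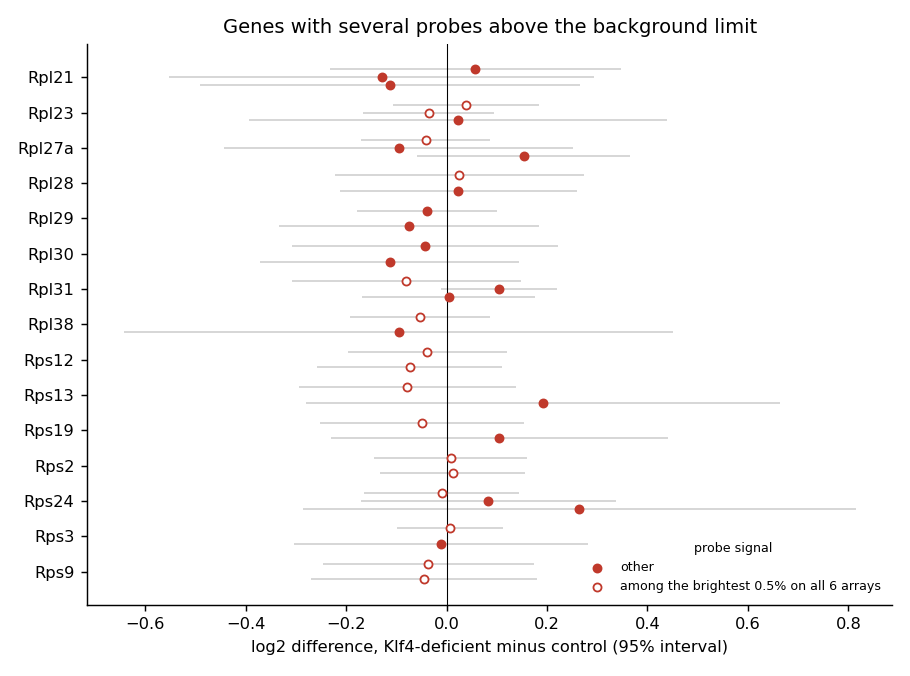
Log2 difference, Klf4-deficient minus control, with its 95% interval from limma (x axis) for each probe above the limit of the 15 genes that have several, brightest probe at the top of each gene. Open circles are probes among the brightest 0.5% on all 6 arrays; probes of Rps13, Rps24, Rpl27a and Rpl31 stand on both sides of 0, and every interval crosses 0.

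Klf4-deficient array 3 had the lowest deposited signals of the members. Its deposited signal was the lowest of the 6 arrays for 65 of the 69 members above the limit, and for 63.5% of all probes above the limit. The median log2 level of the 69 members relative to the control mean, without normalization, was 0.01, -0.04 and -0.33 on Klf4-deficient arrays 1, 2 and 3 and 0.04, -0.07 and 0.03 on control arrays 1, 2 and 3. After quantile normalization it was 0.04, -0.01 and -0.07 on Klf4-deficient arrays and 0.03, -0.03 and 0.01 on control arrays. Array 3 was then the lowest for 31 of the 69 members and for 32.3% of all probes above the limit. With no normalization the median of the 84 members was -0.11, and that of all probes above the limit -0.11. The 84 include members under the limit, so these are not like sets. With cyclic loess the median of the 84 was 0.0044, so the sign of the family's median depended on the scaling. Leaving Klf4-deficient array 3 out gave a median of 0.0092 over the 84 members.

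**Figure D3:**
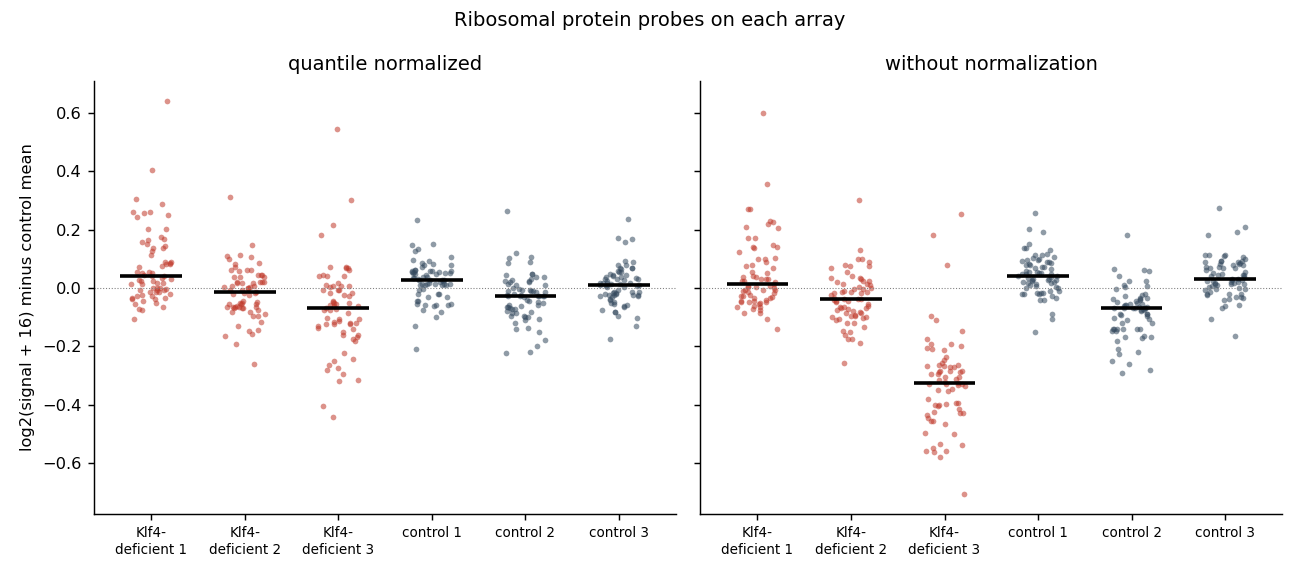
Level of the 69 member probes above the limit on each array as log2(signal + 16) minus the mean of the control arrays (y axis), quantile normalized on the left and without normalization on the right, with black bars at the median. Klf4-deficient array 3 lies at -0.07 on the left and at -0.33 on the right, and the other 5 arrays between -0.07 and 0.04 in both.

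Across 4 ranges of signal from 100 upwards, the deficit of Klf4-deficient array 3 was smallest in the brightest range. Members with a mean signal of 25000 and over (17 probes) had a median of 82.1% of the control mean on that array, against 84.2% for all 81 probes of that range. Between 10000 and 25000 the 22 members stood at 79.6%, against 79.1% for all 219 probes of that range. Between 1000 and 10000 the 18 members were at 76.7%, against 78.9% for all 3700 probes, and between 100 and 1000 the 9 members were at 68.8%, against 79.8% for all 7514 probes. Klf4-deficient array 1 was at 110%, 106%, 99.3% and 98.1% for the members from the lowest to the highest range, and at 97.3%, 97.8%, 99.6% and 97.6% for all probes. The 3 members above the limit with a mean signal under 100 are in none of these ranges, and they did not follow this order. Their log2 ratio to the control mean on array 3, without normalization, was 0.26 for the dim Rps19 probe, 0.09 for the dimmest such Rps24 probe and -0.54 for the dimmest Rpl21 probe. Within a gene the order also varied, as the brightest Rpl31 probe was at -0.50 on array 3 and its dimmer probes at -0.22 and -0.32. Differences between ranges were not tested.

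**Figure D4:**
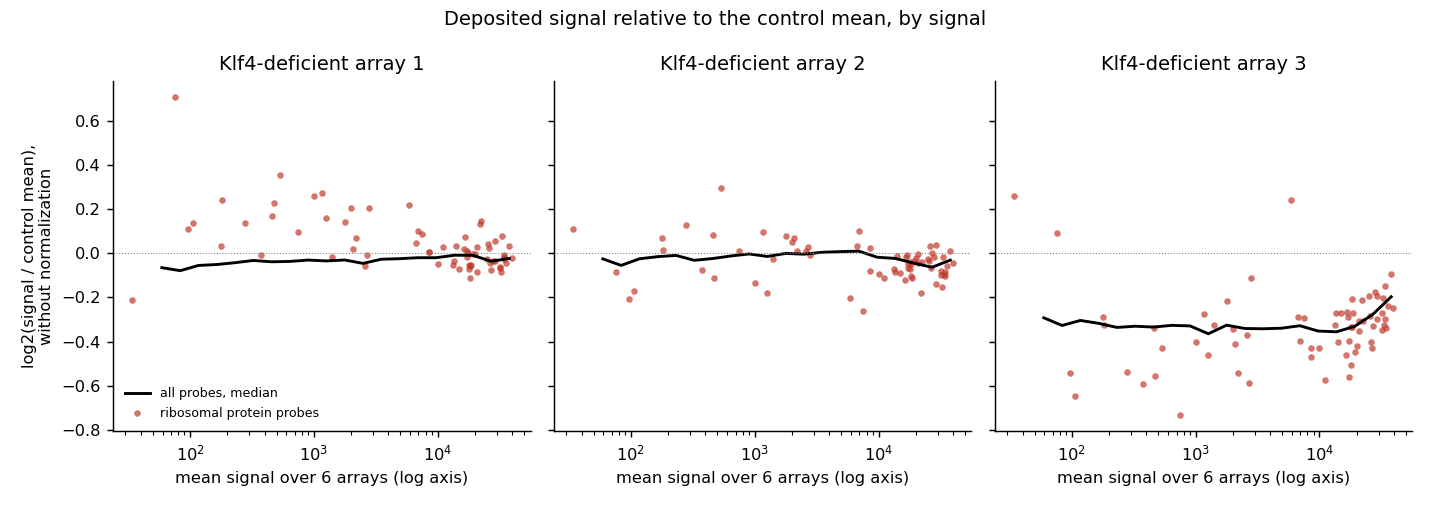
Deposited signal on Klf4-deficient arrays 1, 2 and 3 relative to the control mean, as log2 ratio without normalization (y axis), against mean signal over 6 arrays (x axis, log scale), for the 69 members above the limit (points) and the median of all probes above the limit (line, bins of at least 20 probes). On array 3 the line lies near -0.33 over most of the range and closer to 0 at the brightest end, and the points spread more widely around it at low signal.

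Among marker lists of other cells, the medians of the erythroid, monocyte, NK and megakaryocyte lists lay above the control range on every Klf4-deficient array, and 0 genes of any marker list were called. The median of 15 measured erythroid markers was 0.18, 0.84 and 1.43 above the control mean on Klf4-deficient arrays 1, 2 and 3 and lay between -0.15 and 0.11 on control arrays. That of 19 monocyte and macrophage markers was 0.13, 0.87 and 1.55 on Klf4-deficient arrays and between -0.08 and 0.08 on control arrays. For the 55 member genes, by their brightest probe, the values were 0.02, -0.02 and -0.06 on Klf4-deficient arrays and 0.03, -0.02 and 0.0043 on control arrays. The summed signal of the erythroid list ran from 43033 to 58267 on Klf4-deficient arrays and from 35257 to 42933 on control arrays, with 8 of 15 markers above the limit everywhere and Epb42, Cpox and Rhd on no array. For the monocyte list it ran from 18051 to 38103 on Klf4-deficient arrays and from 16155 to 19917 on control arrays, with 13 of 19 above the limit everywhere and Siglec1 on no array. Neutrophil markers were at -0.20, -0.06 and 1.41 on Klf4-deficient arrays and between -0.25 and 0.35 on control arrays. Among 10 NK markers the median was 0.35, 0.42 and 0.73 on Klf4-deficient arrays and between -0.0042 and 0.04 on control arrays. Of these 10, 4 were above the limit on all arrays and 4 on no array, and the brightest, Prf1, differed by -0.18 ± 0.24 (SE), opposite to the list median. The neutrophil values of arrays 1 and 2 thus lay inside the control range. B lineage markers had a median of -0.10, 0.02 and 0.22 on Klf4-deficient arrays and between -0.14 and 0.12 on control arrays. Megakaryocyte markers had one of 0.12, 0.29 and 0.16 on Klf4-deficient arrays and between -0.07 and 0.02 on control arrays, with 4 of 6 above the limit on no array. What RNA of such cells adds to the member signals was not tested.

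**Figure D5:**
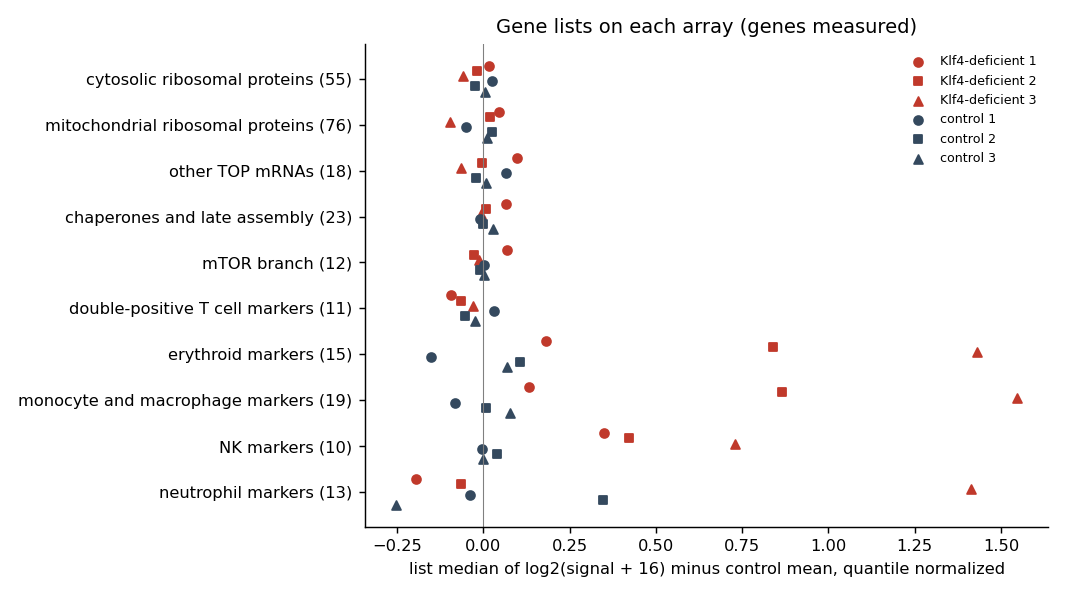
Median level of gene lists on each array relative to the control mean, quantile normalized (x axis), Klf4-deficient arrays in red and control arrays in dark blue, with the number of genes measured in brackets. The cytosolic and mitochondrial ribosomal proteins, other TOP mRNAs, assembly factors and mTOR branch stay within 0.1 of 0 on every array, while erythroid and monocyte markers reach 1.43 and 1.55 on Klf4-deficient array 3.

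Genes around the ribosome gave similar pictures in limma, with 0 genes called in every list. The 76 mitochondrial ribosomal protein genes, which build the separate ribosome of the mitochondrion, had a median of -0.03 with 3 higher and 3 lower before adjustment (p under 0.05), near the 4.41% higher and 6.89% lower among all probes above the limit. Of these, Mrpl10 differed by -0.17 ± 0.03 (SE, adjusted p = 0.528 in limma) and Mrps7 by 0.11 ± 0.02 (adjusted p = 0.531 in limma). The 18 other mRNAs with a TOP start, mostly translation factors, had a median of 0.02 with 1 higher and 0 lower at that level. The 1 was Naca, a subunit of the complex that binds nascent chains at the exit tunnel (0.14 ± 0.05, adjusted p = 0.763 in limma). Chaperones of ribosomal proteins and late assembly factors (23 genes) had a median of 0.02 with 2 higher and 1 lower, few genes to set against those shares. Nmd3, the export adaptor of the 60S subunit, differed by 0.19 ± 0.05 (adjusted p = 0.672 in limma), and Tsr2, the chaperone of Rps26, by -0.46 ± 0.13 (adjusted p = 0.686 in limma). Tsr2 signals were 37.4, 35.7 and 28.9 on Klf4-deficient arrays and 62, 44 and 63.1 on control arrays, not far above the background limit. Centring arrays on the median or leaving out normalization moved the median of all probes above the limit to -0.09 and -0.11, against -0.02 with quantile normalization. The TOP and assembly medians then read -0.06 and -0.05 with centring and -0.08 and -0.07 with no normalization, below 0 but above the median of all probes above the limit in both. Only 17 of the 18 TOP genes and 20 of the 23 assembly genes were above the limit on all arrays, so these are not like sets.

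Upstream of TOP mRNAs, the 12 genes of the mTOR branch had a median difference of 0.06 with 0 higher and 2 lower before adjustment (p under 0.05), where all probes above the limit had 4.41% higher and 6.89% lower. With arrays centred on the median it was -0.02 and with no normalization -0.04, above the -0.09 and -0.11 of all probes above the limit. Rptor, the subunit that defines mTOR complex 1, differed by -0.24 ± 0.05 (SE, adjusted p = 0.573 in limma). Tsc1, part of the complex that restrains mTOR complex 1, differed by -0.32 ± 0.07 (adjusted p = 0.569 in limma). Among 9 genes of the p53 response to ribosomal stress, with Myc, the median was 0.05, and -0.02 and -0.05 under those scalings. The latter 2 were again above the median of all probes above the limit. Only 8 of the 9 genes were above the limit on all arrays, so these are not like sets. Before adjustment 1 gene was higher and 0 lower, against the same shares. The 1 was Cdkn1a, the p53-induced inhibitor of cyclin-dependent kinases, at 0.79 ± 0.17 (adjusted p = 0.587 in limma). Its signals were 77.1, 55 and 63.9 on Klf4-deficient arrays and 41.9, 30.8 and 27.7 on control arrays. These lie not far above the background limit, so the size of the difference is uncertain. Mdm2 differed by 0.05 ± 0.04. Of 8 measured paralogs outside the name pattern, 5 were above the limit on all arrays. None of the 8 passed an unadjusted p under 0.05 in limma, where 2.64% of all probes were higher and 3.4% lower, so this count says little. The median of these paralogs was 0.03, and -0.03 and -0.06 under those scalings. It includes paralogs not above the limit on all arrays, so it is not set against all probes above the limit.

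Member genes with and without a TOP-like stretch at the RefSeq start overlapped in their differences. The 24 genes with one and a probe above the limit had a median difference of -0.0041, from -0.11 to 0.14, and the 17 without one had a median of -0.03, from -0.08 to 0.21. Rps6 and Rpl13a, both shown above with a stretch in capitals, marked both ends of the first set. In the second set Rps25, whose window opens with a run of T and C bases without a leading C, was the highest. These ranges overlap almost wholly, and no test of the difference was made.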

How the data were processed

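The authors deposited 1 intensity per probe, not on a log scale and processed with BeadStudio according to the submitters' processing notes, with values below 0 on 31.3% to 34.2% of the probes of an array. The sources used here do not give the background subtraction, a normalization by the authors or a genome build. Negative values were raised to 0, and log2 of the value plus 16 was quantile normalized. Every probe was fitted in R 4.3.3 by limma 3.58.1 with lmFit and a trended eBayes, and p-values of all 45281 probes were adjusted by the Benjamini-Hochberg method. The background limit was set with the data seen. Precision is limited by having 3 arrays a group.

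Of all probes, 34885 carried 1 symbol in the platform annotation, 18 several and 10378 none. Lists used the probe of highest mean per symbol. Promoter sequences came from RefSeq, GRCm38.p6. Members and lists were chosen with earlier results of these data known. Named members were those called, up to 8 per direction with the smallest unadjusted p among genes above the limit on all arrays, and a fixed set (the T-ALL genes, Rpl22l1, Rps6, Rps14, Rps19, Rpsa, stalk genes), with up to 3 genes per list by smallest unadjusted p. Rpl12, the probes of Rps13, Rps24, Rpl27a and Rpl31, the dim Rps19, Rpl21 and Rpl38 probes and the start windows were chosen after their values were seen. The scripts were tested on simulated data. Alternatives were 3 other normalizations, 2 other offsets, a filter on dim probes, 3 variance settings, a replicate block, 2 ways to join probes, the brightest members left out, and each array left out.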

Additional observations from a re-analysis of the deposited data

How the results depend on the processing

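Under 19 alternatives 0 member probes were called lower, and 0 were called higher except 1 without Klf4-deficient array 1, the dim Rpl4 probe. Leaving out each array gave 0 to 1 member called higher, 0 to 3 members higher and 0 to 1 lower at an unadjusted p under 0.05, and member medians from -0.0147 to 0.0092. At that unadjusted level 2.64% of all probes were higher and 3.4% lower in the main fit. The shares under the alternatives are not given here, so their unadjusted counts are not read as a result about the members. The unadjusted count was 2 higher with arrays centred on the median (Rpl4 and Rpl37) and 1 with cyclic loess, array weights, the replicate block (each Rpl31) and probes averaged per gene (Rpl4). With arrays centred on the median the bright Rpl4 probe differed by 0.0034 (unadjusted p = 0.985 in limma), so the Rpl4 probe counted there was the dim one. The bright Rpl37 probe differed by -0.02 with quantile normalization, and its further probes were under the limit on every array. The member median moved to -0.0808 with arrays centred on the median and to -0.1061 with no normalization, where that of all probes above the limit was -0.09 and -0.11. The member median covers all 84 probes, also those under the limit, so these are not like sets. Among all probes of the array, 1 was called higher and 1 lower. This became 0 and 0 with arrays centred on the median, the replicate block and probes averaged per gene, 1 and 0 with cyclic loess and with the dim probes left out, 2 and 1 with an offset of 1, no variance trend or robust moderation, 2 and 0 with 1 probe per gene, and 1 to 45 higher with 1 to 42 lower when an array was left out. The causes were not tested beyond the fewer probes or arrays of some alternatives. Of 404 values of the 22 named genes, 25 changed sign and 0 were called (lowest adjusted p = 0.556 in limma). Same-numbered arrays had correlations of deviations of 0.157, -0.026 and -0.184, and only number 1 correlated best with its own number. Deviations from a mean of 3 arrays depend on each other, so these values cannot decide whether the numbers pair the samples. Low signal limits 14 members, and the top of the scale limits 38.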
